A study of Homo sapiens with 8 samples.

Results

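The genes described here are 31 genes of cholesterol and fatty acid synthesis, namely the enzymes of both pathways, the regulators that switch them on and 1 sterol carrier. They were chosen by symbol, by a rule that uses no measured value, although earlier results of these data were known. All 31 were found among the 18564 genes of the deposited table. By role, 7 belong to the early mevalonate steps, 11 to the squalene and sterol ring steps, 6 to the SREBP regulators and sterol carrier, and 7 to fatty acid synthesis. All 31 also passed the filter on low counts, which kept 13896 genes in the fit of the 4 conditions and 13520 in the fits of 4 against 4 libraries.

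RNA was sequenced from LP-1, a human myeloma line, as the wild-type (WT) line and as a bortezomib-resistant (BR) derivative that the labels describe as kept with the proteasome inhibitor bortezomib (BTZ) for 2 months. Each line received DMSO vehicle or SI-2, which inhibits the coactivator SRC-3, at 25 nM for 24 h before harvest, with 2 libraries per condition and 8 in all. Both WT groups had no BTZ and both BR groups had it, so the BR comparison takes in the derivation of the line and the drug together. The labels call the WT vehicle cells untreated although their titles name DMSO. They do not say whether 2 libraries with the same condition came from separate cultures, whether BR cells were 1 clone, or whether BTZ was still present at harvest, so the p-values measure only the spread between these libraries, which may be technical.

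Cells make cholesterol from acetyl-CoA through mevalonate, isoprenoid phosphates and squalene, and they make fatty acids from the same precursor through malonyl-CoA. Both pathways are driven by the SREBP transcription factors, which are held in the endoplasmic reticulum with SCAP and the INSIG proteins while sterols are plentiful. When sterols run low, SCAP escorts SREBP to the Golgi, where proteases free its active fragment, which binds sterol regulatory elements in promoters beside NF-Y (CCAAT) and Sp1 (GC) boxes. SREBP-2, from SREBF2, acts mainly on sterol genes, and SREBP-1, from SREBF1, largely on fatty acid genes. Plasma cells and myeloma cells carry a large endoplasmic reticulum, the membrane in which most of these enzymes sit.

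The promoter stretches below are shown because they hold the letters of the element through which SREBP is known to act. They come from the RefSeq promoter table of GRCh38.p14, which covers 250 bases before and 50 after each gene start and matched 27 of the 31 genes (all but ACAT2, FASN, FDFT1 and SQLE) with 37 promoters. The core of the sterol element was searched on both strands as CACNCCAC. It occurred in 6 of the 27 genes, INSIG1, IDI1, SCD, SC5D, ACACA and SREBF2, and in 7 of the 37 promoters (18.9%), against 5.87% of all 35116 promoters in the table. Capitals mark the core or its reverse complement, and also CCAAT or its reverse complement where one lies in the stretch (in IDI1, a CCAAT and its reverse complement share bases), each read 5′ to 3′ on the strand of the gene.
INSIG1: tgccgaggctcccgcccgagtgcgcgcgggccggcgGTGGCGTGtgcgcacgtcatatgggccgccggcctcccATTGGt
IDI1: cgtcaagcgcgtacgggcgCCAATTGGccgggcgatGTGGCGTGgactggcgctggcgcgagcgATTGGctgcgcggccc
SCD: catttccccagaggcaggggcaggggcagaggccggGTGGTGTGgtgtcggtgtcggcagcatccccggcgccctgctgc
SC5D: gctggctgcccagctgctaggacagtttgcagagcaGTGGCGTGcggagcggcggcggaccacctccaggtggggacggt
ACACA: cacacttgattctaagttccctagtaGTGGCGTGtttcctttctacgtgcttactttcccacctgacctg
SREBF2: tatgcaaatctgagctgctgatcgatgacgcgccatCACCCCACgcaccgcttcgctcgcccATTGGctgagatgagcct
The INSIG1 stretch lies at chr7:155297634-155297713 on the plus strand, and its core begins 208 bases before the gene start. The IDI1 stretch is chr10:1048958-1049037 on the minus strand, with the core 115 bases before the start. The SCD stretch is chr10:100347083-100347162 on the plus strand, with the core 114 bases before the start. The SC5D stretch is chr11:121292748-121292827 on the plus strand, where the core stands 68 bases before the start. The ACACA stretch is chr17:37299948-37300017 on the minus strand, 224 bases from core to start. For SREBF2 it is chr22:41832937-41833016 on the plus strand, 132 bases from core to start. The CCAAT box was found in 20 of the 27 genes (64.9% of their promoters, 34.6% of all promoters), and the GC box, GGGCGG, in 26 of 27 (89.2% and 45.0%). These matches are a description of letters in these windows, and a gene without one here, such as HMGCS1 or FDPS for the sterol core, is not thereby shown to lack the element.

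Library totals ran from 17997771 to 18570027 estimated counts, and the 31 genes took 0.6896% of them in BR vehicle 1 to 0.8239% in BR SI-2 1. Plasma cell markers were high throughout, with 8 of 10 at 1 FPKM or more in some library, whereas the 6 B cell markers summed to at most 0.60 FPKM and none reached 1, although the labels name the cells B lymphoblast. T cell markers (5 of 6 found) summed to at most 1.58 FPKM, with only CD3G above 1, and myeloid markers to at most 5.10, carried by LYZ and CD68. The 6 stromal markers summed to 27.7 FPKM in BR SI-2 2, led by COL3A1 (9.90) and COL1A1 (9.84), and to at most 0.16 in the other 7 libraries. NCOA3, which encodes the SI-2 target SRC-3, ran from 158 to 222.5 CPM (the count scaled to library size), with overlapping ranges between lines and between treatments. Same-numbered libraries of a line were closer than replicates: of 4682 genes with whole counts and a mean of at least 50, 18.0% differed past counting error between BR vehicle 2 and BR SI-2 2 and 26.9% between WT vehicle 2 and WT SI-2 2, against 62.3% to 67.4% between the 2 libraries of a condition. Between the vehicle and SI-2 libraries numbered 1 it was 57.9% in WT cells and 59.5% in BR cells. Some libraries of different lines were closer than these number 1 libraries. The share was 45.1% between WT vehicle 1 and BR vehicle 1 and 52.6% between WT SI-2 1 and BR SI-2 1. It was 54.4% between WT SI-2 1 and BR vehicle 2, while other pairs of different lines reached 72.0%. Among the 31 genes, 4 differed between BR vehicle 2 and BR SI-2 2, and 25 to 27 differed between libraries of 1 condition. As in any bulk sample, fewer cells of a type and less RNA per cell cannot be told apart.

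On FPKM, which scales counts by gene length and so allows levels of different genes to be compared, the lipid synthesis genes were abundantly expressed. Their median level over the 8 libraries had a middle value of 50.55 FPKM, against 8.345 FPKM over all 13896 genes tested. FDPS, the synthase of farnesyl diphosphate, stood highest with 316 to 605 FPKM, and its lowest library lay above the highest of every other gene in the list. Next came SCD, the desaturase that makes oleate (214 to 284 FPKM), SQLE, the epoxidase of squalene (143 to 235), INSIG1 (141 to 216) and FDFT1, the squalene synthase (136 to 241), whose ranges overlapped. SREBF2 reached 121 to 165 FPKM and SREBF1 57.4 to 73.1, so that the ranges of the SREBP genes did not meet. The low end was formed by ACACA, the acetyl-CoA carboxylase of fatty acid synthesis (7.36 to 10.7 FPKM), SC5D, a late sterol desaturase (4.33 to 6.22), and FADS2, a fatty acid desaturase of polyunsaturated chains (3.80 to 6.73). Between libraries the same gene varied little, from a ratio of highest to lowest CPM of 1.25 for SREBF2 to 2.19 for ELOVL6.

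**Figure D1:**
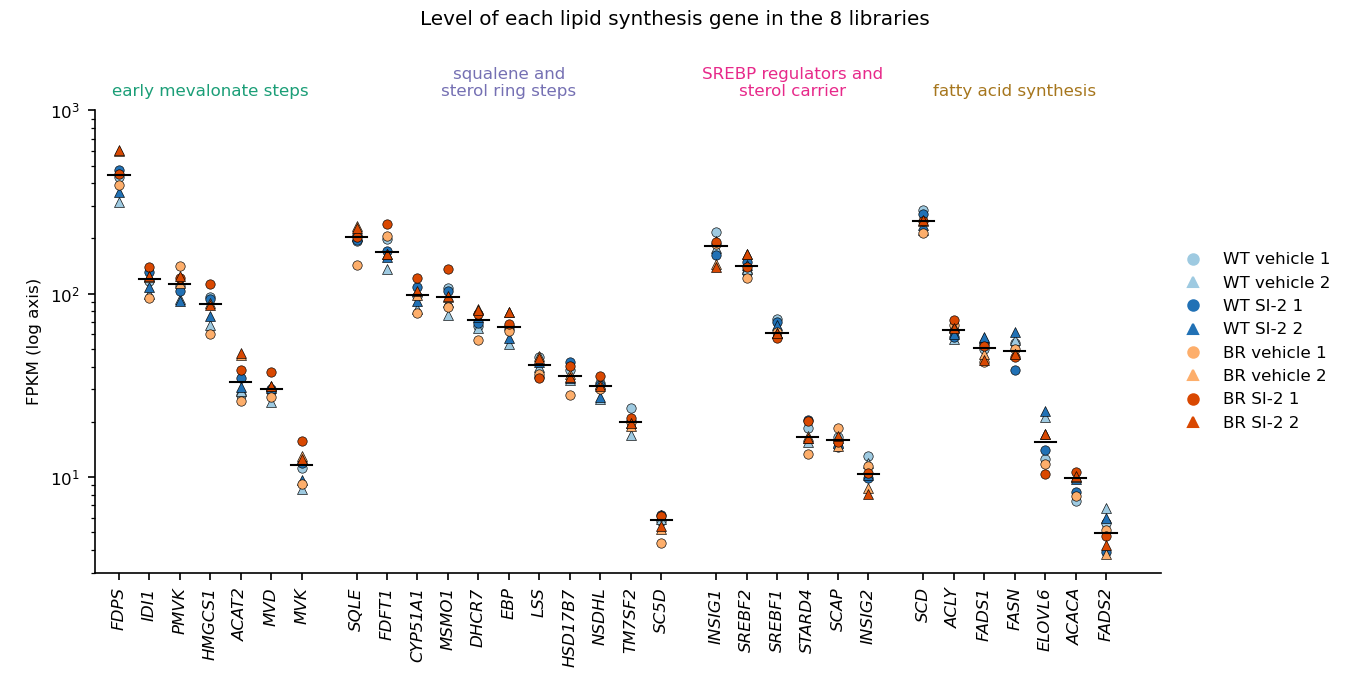
FPKM (log axis) of the 31 genes in the 8 libraries, grouped by role and ordered by median (black bar); colour gives the condition, circles library number 1 and triangles number 2. FDPS leads at 316 to 605 FPKM, FADS2 is lowest at 3.80 to 6.73, and the spread within a gene is small beside the spread between genes.

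No gene of the list passed the threshold between BR and WT cells, and the fold changes were small, with early mevalonate genes on the positive side and most fatty acid genes on the negative side. With the 4 BR libraries set against the 4 WT libraries, so that vehicle and SI-2 counted as replicates of a line, all 7 early mevalonate genes had a positive log2 fold change, with a median of 0.25. Of the 11 ring-step genes 6 were positive (median 0.05). Of the 6 regulators and carrier 4 were negative (median -0.145), and of the 7 fatty acid genes 5 were negative (median -0.19). Over all 31 genes the median was 0.03, with 17 positive, against 0.00416 over all 13520 genes, and it ran from -0.07 to 0.10 when 1 library was left out. At an adjusted p under 0.05 in edgeR's quasi-likelihood test, 0 of 31 genes were called, against 0.362% of all genes (49). At an unadjusted p under 0.05 there were 5, namely PMVK, FADS1, SREBF1, FDPS and EBP, which is 16.1% of the list against 14.4% of all genes. That number was 9 without BR vehicle 1 (18.4% of all genes there), 3 without WT vehicle 2 (8.63%), 2 without BR vehicle 2 (10.1%), and 1 without BR SI-2 2 (10.1%) or without WT SI-2 2 (9.1%). No gene of the list had all 4 BR libraries above or all 4 below the WT libraries, which 3.74% and 4.34% of all genes did. The plasma cell markers summed to 1645 to 1996 FPKM in WT cells and 1204 to 1673 FPKM in BR cells, lowest in BR vehicle 2 (1297) and BR SI-2 2 (1204), and their part in these values was not tested.

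**Figure D2:**
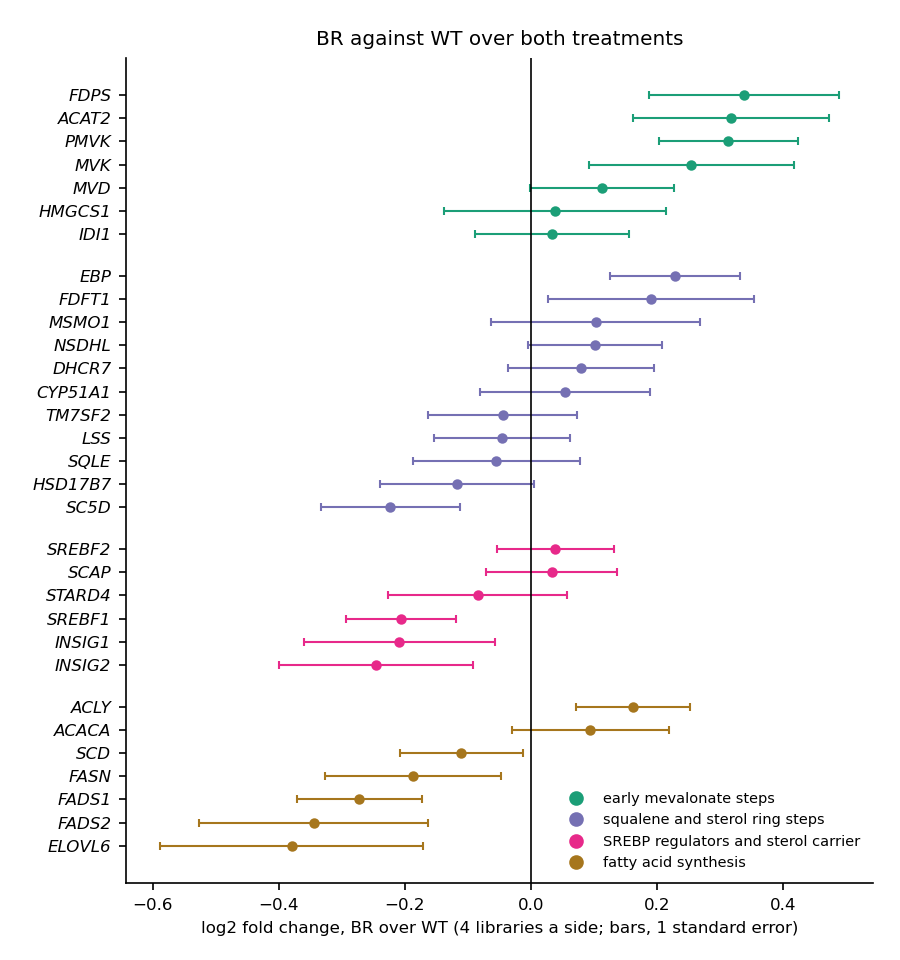
Log2 fold change of BR over WT cells for each gene (horizontal axis, 4 libraries a side; bars, 1 standard error), grouped by role. The 7 early mevalonate genes lie at 0.03 to 0.34 and 5 of the 7 fatty acid genes lie below 0, down to -0.38 for ELOVL6.

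Among the early mevalonate enzymes, FDPS, PMVK and ACAT2 had the largest differences. FDPS (gene 2224) was measured at 578 and 418 CPM with vehicle and 601 and 469 with SI-2 in WT cells, and at 525 and 752 with vehicle and 589 and 742 with SI-2 in BR cells. Both number 2 libraries of BR cells were the highest of the 8, both number 2 libraries of WT cells the lowest, and the number 1 libraries of the lines overlapped. Its log2 fold change was 0.34 ± 0.15 (SE, n = 4 libraries a side, edgeR adjusted p = 0.34). PMVK (gene 10654), the phosphomevalonate kinase, was measured at 143 and 119 CPM with vehicle and 130.3 and 117 with SI-2 in WT cells, and at 185 and 141 with vehicle and 158 and 149 with SI-2 in BR cells. Every BR library but BR vehicle 2 lay above every WT library, and BR vehicle 2 lay just under WT vehicle 1. The log2 fold change of PMVK was 0.31 ± 0.11 (SE), with the smallest adjusted p of the list at 0.249 in edgeR. ACAT2 (gene 39), the cytosolic thiolase that joins acetyl-CoA units, was measured at 44.6 and 46.1 CPM with vehicle and 53.6 and 48.3 with SI-2 in WT cells, and at 41.4 and 68.8 with vehicle and 60.1 and 69.6 with SI-2 in BR cells. Here 3 BR libraries stood above all 4 WT libraries while BR vehicle 1 was the lowest of all, which gave 0.32 ± 0.15 (SE, edgeR adjusted p = 0.378). The remaining members of the group had log2 fold changes of 0.25 ± 0.16 for MVK, 0.11 ± 0.11 for MVD, 0.04 ± 0.18 for HMGCS1 and 0.03 ± 0.12 for IDI1 (SE).

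In the squalene and ring steps the values lay on both sides of 0. EBP, the sterol isomerase, had the highest log2 fold change in BR cells (0.23 ± 0.10, SE, edgeR adjusted p = 0.342), followed by FDFT1 (0.19 ± 0.16), MSMO1, a sterol methyl oxidase (0.10 ± 0.17), NSDHL (0.10 ± 0.11), DHCR7, the reductase of the last step to cholesterol (0.08 ± 0.12), and CYP51A1, the lanosterol demethylase (0.05 ± 0.13). SC5D was the lowest at -0.22 ± 0.11 (SE, edgeR adjusted p = 0.381). HSD17B7 (-0.12 ± 0.12), SQLE (-0.06 ± 0.13), LSS, the lanosterol synthase (-0.05 ± 0.11), and TM7SF2 (-0.05 ± 0.12) lay within about 1 standard error of 0.

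Of the regulators, SREBF1 and both INSIG genes had negative values in BR cells, and SREBF2 and SCAP lay near 0. SREBF1 (gene 6720) was measured at 321 and 269 CPM with vehicle and 300.0 and 296 with SI-2 in WT cells, and at 276 and 251 with vehicle and 251 and 250.2 with SI-2 in BR cells. The 3 lowest libraries were all BR, and BR vehicle 1 passed only WT vehicle 2. Its log2 fold change of -0.21 ± 0.09 (SE, edgeR adjusted p = 0.321) compares with 0.04 ± 0.09 (adjusted p = 0.873) for SREBF2 (gene 6721), which was measured at 671 and 695 CPM with vehicle and 727 and 743 with SI-2 in WT cells, and at 632 and 791 with vehicle and 711 and 777 with SI-2 in BR cells. In SREBF2 the BR libraries took both ends of the order, with BR vehicle 2 and BR SI-2 2 highest and BR vehicle 1 lowest. SCAP (gene 22937), the escort of SREBP, was measured at 70.1 and 62.9 CPM with vehicle and 60.4 and 68.7 with SI-2 in WT cells, and at 76.9 and 59.4 with vehicle and 66.4 and 65.3 with SI-2 in BR cells, with a log2 fold change of 0.03 ± 0.10 (SE, edgeR adjusted p = 0.905). The lines overlapped in SCAP, with BR vehicle 1 highest and BR vehicle 2 lowest. INSIG1 (gene 3638), which retains SCAP and is itself an SREBP target, was measured at 666 and 545 CPM with vehicle and 479 and 598 with SI-2 in WT cells, and at 577 and 417 with vehicle and 587 and 399 with SI-2 in BR cells. INSIG2 (gene 51141), its relative, was measured at 35.4 and 31.99 CPM with vehicle and 26.1 and 27.3 with SI-2 in WT cells, and at 30.9 and 22.4 with vehicle and 28.4 and 20.2 with SI-2 in BR cells. For both INSIG genes the lowest values were BR vehicle 2 and BR SI-2 2 and the highest was WT vehicle 1, and the log2 fold changes were -0.21 ± 0.15 and -0.25 ± 0.15 (SE, edgeR adjusted p = 0.555 and 0.492). STARD4, a carrier that moves sterol between membranes, had -0.08 ± 0.14. The reads of SREBF1 were shared among 8 transcripts in the deposited transcript table, and 1 transcript took 56.0% and 53.7% of them in the WT number 1 libraries (vehicle, SI-2), 39.2% and 44.1% in the WT number 2 libraries, and 50.3% to 53.4% in BR cells. Another took 30.3% to 40.9%, and in WT vehicle 2 it was the larger (40.9% against 39.2%). In SREBF2 the leading transcript took 83.3% to 87.7% in every library.

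Of the fatty acid genes, ELOVL6, FADS2 and FADS1 had the most negative values in BR cells. ELOVL6 (gene 79071), the elongase of palmitate, was measured at 48.9 and 80.2 CPM with vehicle and 51.5 and 85.4 with SI-2 in WT cells, and at 45.6 and 60.3 with vehicle and 38.9 and 59.5 with SI-2 in BR cells. The number 2 library was the higher in each of the 4 conditions, and the BR value was the lower in each comparison of 2 libraries with the same treatment and number. Its log2 fold change was -0.38 ± 0.21 (SE, edgeR adjusted p = 0.435). FADS1 (gene 3992), which desaturates polyunsaturated chains with FADS2, was measured at 221 and 253 CPM with vehicle and 233 and 257 with SI-2 in WT cells, and at 188 and 198 with vehicle and 229 and 183 with SI-2 in BR cells. Only BR SI-2 1 passed a WT library, and the log2 fold change was -0.27 ± 0.10 (SE, edgeR adjusted p = 0.262). FADS2 (gene 9415) was measured at 17.5 and 20.8 CPM with vehicle and 11.8 and 18.4 with SI-2 in WT cells, and at 16.0 and 11.1 with vehicle and 14.6 and 12.2 with SI-2 in BR cells, with a log2 fold change of -0.34 ± 0.18 (SE, edgeR adjusted p = 0.416). WT SI-2 1 lay among the BR libraries, and the other 3 WT libraries were the highest of the 8. FASN (gene 2194), the fatty acid synthase, was measured at 470.1 and 484 CPM with vehicle and 328 and 539 with SI-2 in WT cells, and at 439.9 and 389 with vehicle and 392 and 378 with SI-2 in BR cells, and its log2 fold change was -0.19 ± 0.14 (SE, edgeR adjusted p = 0.568). WT SI-2 1 was the lowest library for FASN, below every BR library, whereas the other WT libraries were the highest. SCD had -0.11 ± 0.10, ACACA 0.09 ± 0.12 and ACLY, the citrate lyase that supplies acetyl-CoA, 0.16 ± 0.09.

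**Figure D3:**
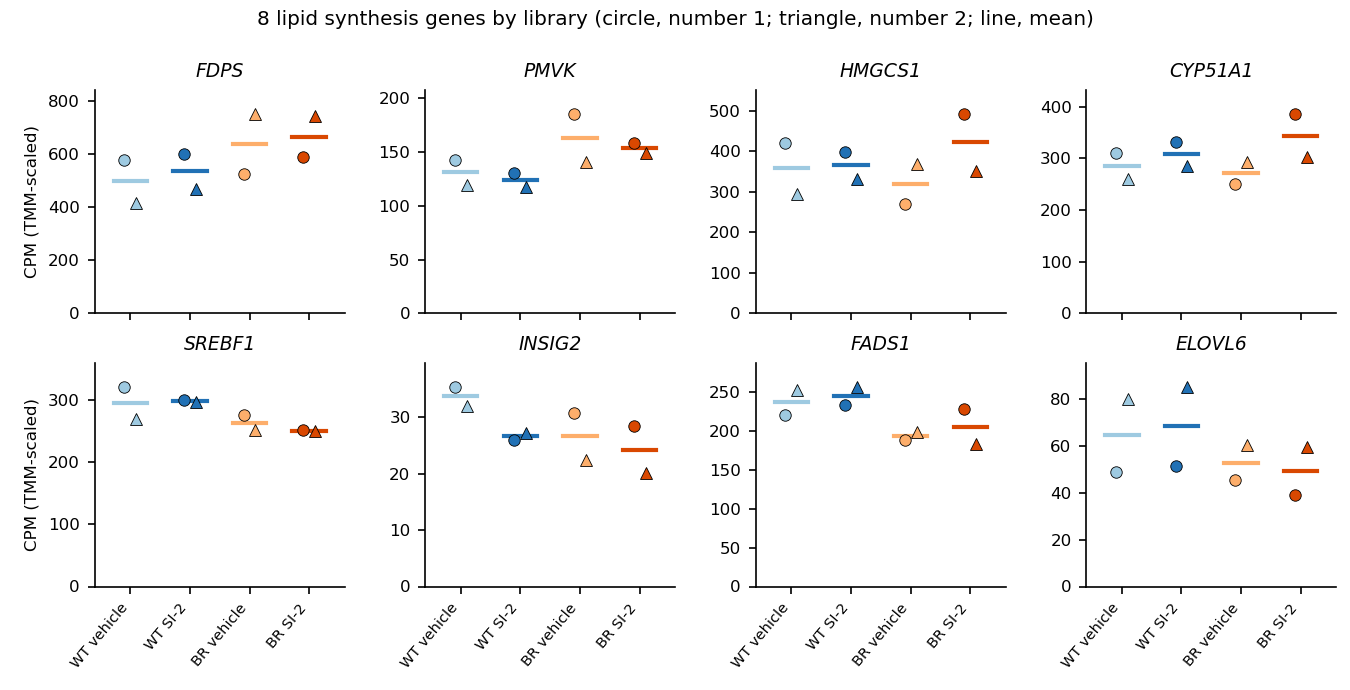
CPM of 8 genes in each library (vertical axis from 0; circles, number 1; triangles, number 2; horizontal lines, means of 2), by condition. FDPS in BR cells spans 525 to 752 and ELOVL6 is higher in the number 2 library of each condition.

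Within a treatment, where each side had 2 libraries, the early mevalonate group had a positive log2 fold change in 5 of 7 genes under vehicle (median 0.15) and in 7 of 7 under SI-2 (median 0.31). The fatty acid group was negative in 5 of 7 genes under each, with medians of -0.20 and -0.17. Over all 31 genes the medians were -0.06 under vehicle and 0.03 under SI-2. In edgeR 0 of 31 genes were called under vehicle, against 0% of all genes, and 0 of 31 under SI-2, against 0.0072% (1 gene). DESeq2 called 28 and 31 genes in all and none of the list, and 0 of the 31 had an unadjusted p under 0.05 in edgeR, against 3.89% and 4.09% of all genes. Without BR SI-2 1 that condition kept only BR SI-2 2, the library with the stromal markers, so calls of that fit are not given. The smallest edgeR adjusted p in the list was 0.967 under vehicle and 0.998 under SI-2. Under vehicle the 2 BR libraries both exceeded the 2 WT libraries in 1 of 31 genes (ACLY) and lay below them in 5 (SC5D, INSIG2, FASN, FADS1 and FADS2), against 15.6% and 17.6% of all genes. Under SI-2 they lay above in 4 (ACAT2, PMVK, EBP and DHCR7) and below in 2 (SREBF1 and FADS1), against 13.3% and 15.2%. FADS1 was thus apart under either treatment, with log2 fold changes of -0.29 ± 0.17 and -0.25 ± 0.17 (SE).

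SI-2 was followed by no called difference in these genes in either line. In BR cells 22 of 31 genes had a positive log2 fold change, with a median of 0.09 against -0.000995 for all genes. The positive values lay in the sterol pathway, in 6 of 7 early mevalonate genes (median 0.235) and 10 of 11 ring-step genes (median 0.18), and in fatty acid synthesis 4 of 7 genes were positive (median 0.00878). The comparisons of SI-2 in BR cells and of BR with WT under vehicle use the same BR vehicle libraries, as those in WT cells use the same WT vehicle libraries. In edgeR 0 of 31 genes were called, against 0% of all genes, and an unadjusted p under 0.05 was found for 0 of 31, against 1.2%. Without BR SI-2 1 or without BR vehicle 2 a side of this comparison kept 1 library, so calls of those fits are not given. The vehicle libraries both lay below both SI-2 libraries in 3 of 31 genes (CYP51A1, SC5D and STARD4) and above them in 1 (SREBF1), while 10.7% and 11.2% of all genes did so. In WT cells 19 of 31 genes were positive (median 0.05, all genes 0.000527), 0 were called, against 0% of all genes, and an unadjusted p under 0.05 was found for 0 of 31, against 0.533%. There both SI-2 libraries were higher in 4 of 31 genes (ACAT2, SC5D, DHCR7 and SREBF2) and lower in 1 (INSIG2), against 10.9% and 12.3% of all genes. DESeq2 called 1 gene in all in each line and none of the 31. The edgeR test of the difference between the lines called 0 of 31 genes and 0% of all genes, and an unadjusted p under 0.05 was reached by 0 of 31 and 0.533% of all genes (74). Its values were positive in 24 of 31 genes, with a median of 0.10 against -0.00576 for all genes, and the median was 0.00846 without WT vehicle 1 and -0.00977 without BR SI-2 1.

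HMGCS1, MSMO1 and CYP51A1 had the highest log2 fold changes with SI-2 in BR cells. HMGCS1 (gene 3157), the synthase that opens the mevalonate pathway, was measured at 421 and 294 CPM with vehicle and 398 and 331 with SI-2 in WT cells, and at 269 and 369 with vehicle and 492 and 351 with SI-2 in BR cells. BR SI-2 1 was the highest library and BR vehicle 1 the lowest of the 8, and the number 2 libraries of BR cells lay between them and close together. The log2 fold change was 0.40 ± 0.25 (SE, n = 2 libraries a side, edgeR adjusted p = 1.0). MSMO1 (gene 6307) was measured at 239 and 169 CPM with vehicle and 226 and 202 with SI-2 in WT cells, and at 188 and 204 with vehicle and 306 and 201 with SI-2 in BR cells, with 0.37 ± 0.23 (SE). Its 3 other BR libraries lay within 188 to 204 CPM, well under BR SI-2 1. CYP51A1 (gene 1595) was measured at 310.4 and 259.6 CPM with vehicle and 333 and 286 with SI-2 in WT cells, and at 251 and 294 with vehicle and 387 and 302 with SI-2 in BR cells, with 0.34 ± 0.18 (SE) in BR cells and 0.12 ± 0.18 in WT cells. For CYP51A1 the SI-2 library was the higher of the same-numbered libraries in each line, by a small margin among the number 2 libraries of BR cells. MVK (gene 4598), the mevalonate kinase, was measured at 22.7 and 16.99 CPM with vehicle and 24.1 and 19.4 with SI-2 in WT cells, and at 19.1 and 24.9 with vehicle and 31.4 and 23.7 with SI-2 in BR cells, with 0.32 ± 0.24 in BR cells and 0.13 ± 0.24 in WT cells (SE). The lowest values with SI-2 in BR cells were -0.13 ± 0.22 for INSIG2, -0.11 ± 0.22 for FASN and -0.11 ± 0.33 for ELOVL6, and in WT cells -0.35 ± 0.27 for FADS2, -0.34 ± 0.22 for INSIG2 and -0.17 ± 0.24 for INSIG1 (SE). The highest in WT cells was ACAT2, at 0.17 ± 0.23. Single libraries moved several of these values. Without BR SI-2 1 the log2 fold change in BR cells was 0.132 for HMGCS1 and 0.0272 for MSMO1, and without BR SI-2 2 it was 0.625 and 0.642. In WT cells FADS2 had -0.0634 without WT SI-2 1 and -0.692 without WT SI-2 2, and INSIG1 had -0.0174 without WT vehicle 1 and -0.334 without WT SI-2 2. Of the 6 genes with the sterol core in their promoter, SC5D (0.25 ± 0.16), IDI1 (0.24 ± 0.18), ACACA (0.20 ± 0.20), SCD (0.09 ± 0.16) and SREBF2 (0.06 ± 0.15) had positive values with SI-2 in BR cells and INSIG1 had -0.01 ± 0.24 (SE). In the whole list 22 of 31 genes were positive there. Between BR SI-2 2 and BR vehicle 2, SC5D differed by 0.01 in log2 CPM. IDI1 (-0.04), ACACA (-0.007), SCD (-0.01), SREBF2 (-0.03) and INSIG1 (-0.06) lay below 0.

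Compared within a library number, most sterol genes were higher with SI-2 between the BR number 1 libraries and lay close together between the BR number 2 libraries. Between BR SI-2 1 and BR vehicle 1 the median difference in log2 CPM was 0.52 for the early mevalonate group and 0.455 for the ring steps, with 6 of 7 and 10 of 11 genes higher. Between BR SI-2 2 and BR vehicle 2 the medians were -0.02 and -0.03, with 2 of 7 and 3 of 11 genes higher. HMGCS1 differed by 0.87 in the number 1 libraries and by -0.07 in the number 2 libraries, and MSMO1 by 0.70 and -0.02. In WT cells the same medians were 0.06 and -0.02 for number 1 and 0.17 and 0.12 for number 2. Between same-numbered BR libraries, the positive medians of these groups were thus found in number 1 only, a pairing the labels do not give. By library, the early mevalonate median relative to each gene's mean was -0.229 and 0.037 with vehicle and 0.282 and 0.073 with SI-2 in BR cells. Over the 31 genes the median difference was 0.204 between the BR number 1 libraries (23 higher) and -0.0245 between the BR number 2 libraries (8 higher). With 1 library left out in turn, the SI-2 median of the 31 genes in BR cells ran from 0.0527 to 0.168. Each of those fits kept BR vehicle 1, BR SI-2 1 or both. The number 2 libraries of BR cells also resembled each other over all genes (median absolute difference 0.0879 over all genes and 0.0389 over the 31 genes). The stromal markers named above were high in BR SI-2 2 only, and their part in these values was not tested. The labels do not say what the library number stands for.

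**Figure D4:**
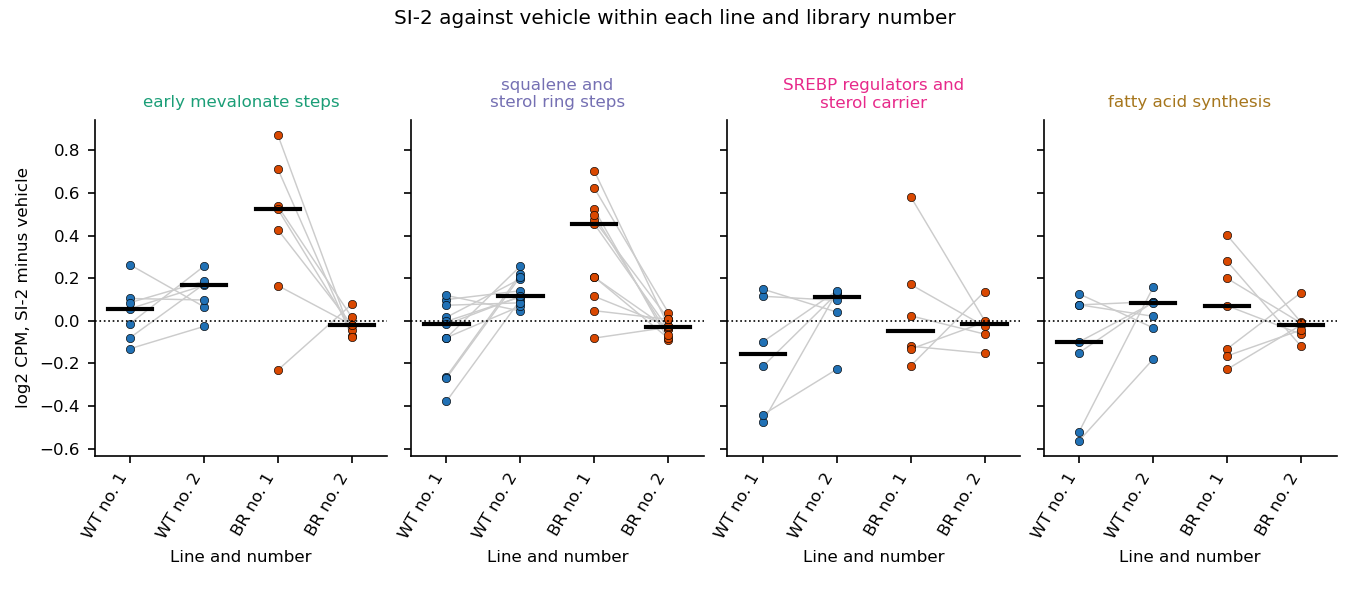
Difference in log2 CPM between the SI-2 and the vehicle library of the same line and number (vertical axis), 1 point per gene, by role; grey lines join a gene's values within a line and black bars are medians. The early mevalonate median is 0.52 in the BR number 1 libraries and -0.02 in the BR number 2 libraries.

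The SI-2 library was the higher one in all 4 of these comparisons for ACAT2, CYP51A1, SC5D and STARD4, which is 12.9% of the 31 genes against 9.82% of all genes. It was the lower in all 4 for INSIG2 alone, 3.23% of the list against 11.8% of all genes. With both lines pooled, so that lines counted as replicates of a treatment, 21 of 31 genes were positive with a median of 0.07 (all genes 0.000353). MVK (0.23 ± 0.17), CYP51A1 (0.23 ± 0.12) and MSMO1 (0.225 ± 0.16) were highest, and INSIG2 (-0.24 ± 0.16), FADS2 (-0.20 ± 0.20) and FASN (-0.12 ± 0.15) lowest (SE, n = 4 libraries a side). In edgeR 0 of 31 genes were called, against 0% of all genes, and 0 of 31 had an unadjusted p under 0.05, against 2.22%. With the library number blocked within each line, a pairing the labels do not give, those shares were 3 of 31 and 13.9%, and still 0 genes were called. No gene of the list separated the 4 SI-2 libraries from the 4 vehicle libraries, which 0.676% of all genes did upward and 0.77% downward.

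Across the 8 libraries many sterol genes followed a common course, in which the 2 libraries of a condition lay apart. HMGCS1, MVK, IDI1, CYP51A1, MSMO1 and STARD4 were each at or near their highest level in BR SI-2 1 and low in BR vehicle 1 and WT vehicle 2. BR SI-2 1 was the highest library for 11 of the 31 genes (35.5%, against 17.2% of all genes) and BR vehicle 1 the lowest for 11 (35.5% against 12.9%), while WT vehicle 2 was the lowest for 8 (25.8% against 16.6%). For the early mevalonate group the median log2 CPM relative to the mean of each gene ran from -0.245 in WT vehicle 2 and -0.23 in BR vehicle 1 to 0.28 in BR SI-2 1. For all genes it stayed within -0.00159 and 0.00854, where the scaling holds it near 0. Between the 2 libraries of a condition the median absolute difference was 0.182 to 0.285 over the 31 genes and 0.224 to 0.258 over all genes. ACAT2, FDPS and EBP took another course, with their highest values in BR vehicle 2 and BR SI-2 2. The fatty acid group was highest in WT vehicle 2 and WT SI-2 2 (medians 0.19 and 0.23), the libraries in which FDPS was lowest.

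**Figure D5:**
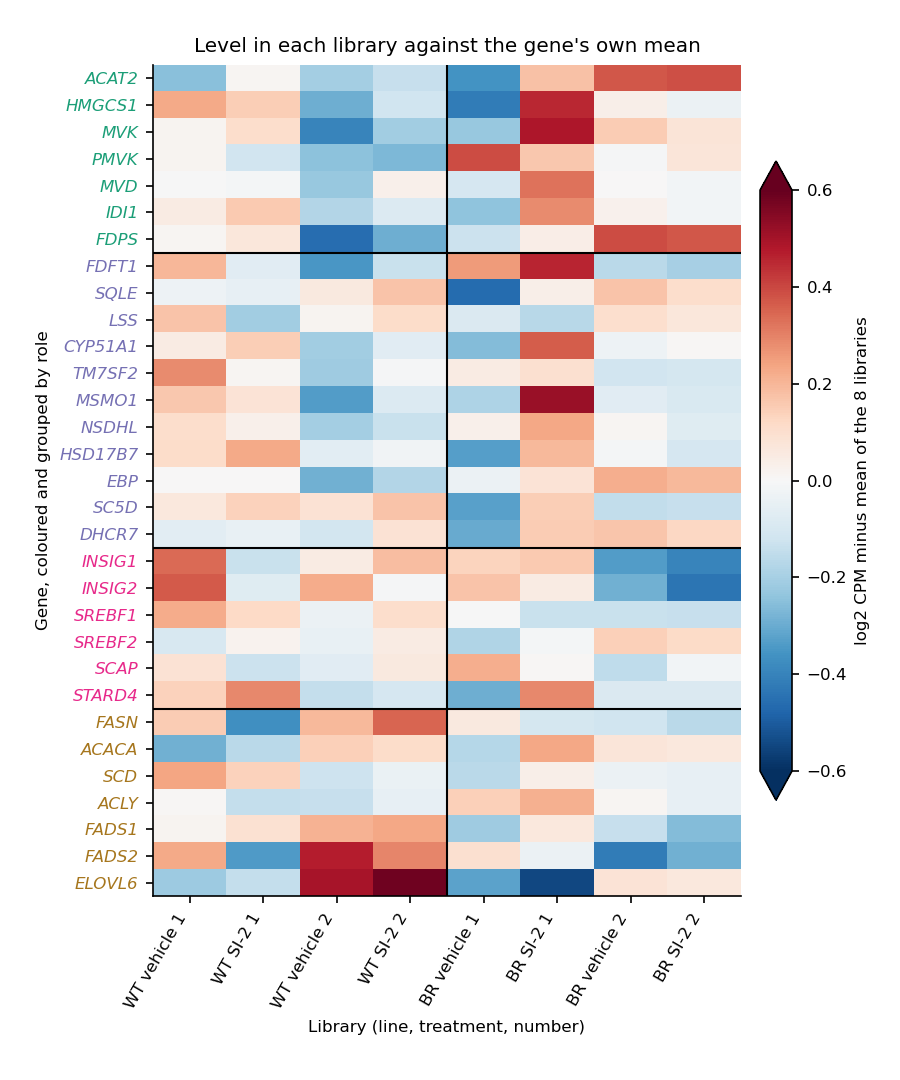
Log2 CPM of each gene (rows, by role) in each library (columns, same-numbered libraries of a line side by side) minus the mean of the gene over the 8 libraries; red is above and blue below the mean. BR SI-2 1 is red for most sterol genes where BR vehicle 1 is blue, and the number 2 libraries of BR cells look alike.

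The 4 libraries numbered 2 were also set against the 4 numbered 1, a contrast that is no question of the study. The early mevalonate and ring-step medians were -0.13 and -0.11, and the fatty acid median was 0.06. ELOVL6 had the largest value, with means of 71.4 CPM in number 2 and 46.2 in number 1 (log2 fold change 0.63 ± 0.14, SE, edgeR adjusted p = 0.0647), and FDFT1 the lowest at -0.43 ± 0.12 (330.5 against 446 CPM, edgeR adjusted p = 0.103). All 4 number 2 libraries lay above all 4 number 1 libraries in 2 of 31 genes (SQLE and ELOVL6) and below them in 3 (FDFT1, TM7SF2 and NSDHL), against 5.9% and 5.96% of all genes. In edgeR 0 of 31 genes were called, against 0.925% of all genes (125), and 4 reached an unadjusted p under 0.05, which is 12.9% against 16.9%. The 125 calls were 93 without WT SI-2 1, 1 without BR vehicle 2 and 0 without any of the other 6 libraries. DESeq2 called 2 of 31, ELOVL6 (adjusted p = 0.0034) and FDFT1 (adjusted p = 0.0177), against 5.52% of all genes. Beside the comparison of the lines, the library number went with a larger absolute value in ELOVL6 and FDFT1 than the line did (0.63 against 0.38, and 0.43 against 0.19), a difference that was not tested.

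Genes near these pathways that were not in the list gave no call in edgeR in any of the 8 comparisons. Of 13 other sterol and isoprenoid enzymes 8 were positive in BR against WT (median 0.04), from PDSS1, a prenyl synthase of ubiquinone (0.54 ± 0.175), to DHDDS, a synthase of dolichol (-0.13 ± 0.15). Of 10 genes that process SREBP or turn over its partners 7 were negative (median -0.05), from ERLIN1 at 0.15 ± 0.105 to SEC24D, a coat protein of transport vesicles, at -0.425 ± 0.51. All 10 were below 0 for SI-2 against vehicle over both lines (-0.465 to -0.0101, median -0.05), where 50.1% of all genes were above 0. In that comparison 8 of the 13 other sterol and isoprenoid enzymes were positive, and 6 of 12 and 12 of 20 genes in the 2 lists that follow. With SI-2 in BR cells 6 of those 13 enzymes were positive (median -0.0324). Of 12 genes of sterol uptake, transport and efflux that could be tested (of 15) 7 were negative in BR against WT, from MYLIP (0.21 ± 0.27) to the lipoprotein receptor SCARB1 (-0.30 ± 0.13). Of 20 testable genes of fatty acid and glycerolipid synthesis (of 24) 13 were negative (median -0.09), from GPAM, an acyltransferase of glycerolipid synthesis, at 0.25 ± 0.15 to FADS3, a further desaturase gene, at -0.74 ± 0.25 (SE throughout, edgeR adjusted p = 0.234 for FADS3).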

How the data were processed

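RNA of 8 LP-1 libraries, 2 per condition, was sequenced by the authors on the BGISEQ-500 platform after removal of low-quality reads. Conditions and replicate numbers were taken from the sample labels. The authors deposited estimated counts per gene and per transcript, in which reads shared between genes are divided, and FPKM, which they scaled by gene length and library size. Their processing notes name BWA, Bowtie2, RSEM and hg19, without versions. The 8 deposited columns of condition averages were not used here, and tables of the authors' own comparisons (fold changes and p-values) were not used either.

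Estimated counts were rounded, filtered with filterByExpr, scaled by TMM and tested over all genes in edgeR 4.0.16 by quasi-likelihood with Benjamini-Hochberg adjustment, in a fit of 4 conditions or of 4 against 4 libraries. Standard errors were derived from the fold change and its F statistic. Levels are given as TMM-scaled CPM within a gene and as FPKM between genes, and centred log2 CPM used a prior count of 2. Counting error between 2 libraries was judged at 1.96 standard errors. Between 2 conditions the tests had 2 libraries a side, at nearly equal depth. The fits were tested on simulated data. Per-library values are given for SREBF1, SREBF2, SCAP and the INSIG genes and for the 3 highest and 3 lowest genes of 4 comparisons. The genes of interest, the lists of neighbouring pathway genes and the markers were chosen with earlier results of these data known. Alternatives were other scalings (RLE, upper quartile, library size), other filters on counts, DESeq2 1.42.0, limma 3.58.1 on log2(FPKM + 1) and log2(FPKM + 0.1), a replicate block, fewer libraries or added condition terms in the fit, and each library left out. R 4.3.3 and Python 3.11.15 were used. Promoters came from the RefSeq table of GRCh38.p14, a build other than that of the counts.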

Additional observations from a re-analysis of the deposited data

Results flagged for a closer look

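In groups of 4 libraries of a line or of a treatment, 6 of 124 checks found 1 library far from the other 3, where the gap to the nearest library divided by the whole range exceeded the critical value of Dixon's test. Chance flags about 1 in 20 such groups. Among the BR libraries, SREBF1 in BR vehicle 1 (275 CPM, the others at 250.2 to 251) had a gap of 0.953 of the range, DHCR7 in BR vehicle 1 (154 CPM, the others at 207 to 213) one of 0.918, and MSMO1 in BR SI-2 1 (306 CPM, the others at 188 to 204) one of 0.83. Among the WT libraries, MVD, the decarboxylase of the mevalonate pathway, stood apart in WT vehicle 2 (48.5 CPM, the others at 56.3 to 58.0) with 0.833. Among the SI-2 libraries, MVD stood apart in BR SI-2 1 (71.3 CPM, the others at 56.1 to 58.0) with 0.863, and SC5D in BR SI-2 2 (35.8 CPM, the others at 43.4 to 44.4) with 0.889.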

How the results depend on the processing

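No gene of the list was called under any alternative in the 7 comparisons of line and treatment. In the contrast of library numbers, scaling by library size only called 1 gene of the list (ELOVL6, adjusted p = 0.0486) and DESeq2 called 2, and edgeR with TMM called 0. With the replicate block 0 genes of the list were called in every comparison, and the median of BR against WT over both treatments was 0.03. The main fits took no pairing by number, which the labels do not give. The correlation of same-numbered deviations was 0.436 within WT and 0.373 within BR cells, the values that bear on SI-2 against vehicle. Between conditions of different lines it ran from -0.121 to 0.196. A pairing within a line is taken in only by the block of line and number described below. Over all genes, BR against WT over both treatments had 49 calls, 155 with the replicate block, 399 with DESeq2 and 21 to 125 with 1 library left out, and the contrast of numbers had 125, 746 with DESeq2, 0 with condition terms and 0 to 93 with 1 library left out. A block of line and number together, added after the libraries had been compared, called 0 genes of the list and 1 gene in all (SI-2 in BR cells). With it the genes at an unadjusted p under 0.05 went from 300 to 1885 for SI-2 over both lines (0 to 3 of the list), from 167 to 492 in BR cells (0 to 1) and from 74 to 453 in WT cells (0 to 2). With each library left out in turn, the median over the list ran from -0.14 to 0.0696 for BR against WT under vehicle. It ran from -0.0613 to 0.13 under SI-2 and from -0.07 to 0.10 over both treatments. For SI-2 in WT cells it ran from -0.10 to 0.14, and for the difference between the lines from -0.00977 to 0.196. It stayed positive for SI-2 in BR cells (0.0527 to 0.168) and for SI-2 over both lines (0.0402 to 0.132). Each of these fits kept BR vehicle 1, BR SI-2 1 or both, and between the BR number 2 libraries alone the median difference was -0.0245. The sign of a named gene turned for INSIG2 (-0.41 to 0.10) and ELOVL6 (-0.445 to 0.16) with SI-2 in BR cells, for CYP51A1 (-0.0012 to 0.25) and MVK (-0.0599 to 0.355) with SI-2 in WT cells, and for SREBF2 (-0.0036 to 0.10) and SCAP (-0.0396 to 0.0868) in BR against WT; the cause was not tested. With 2 libraries a side the standard errors of the genes reached 0.327, so differences of that size were not resolved.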
